A study of Mus musculus with 4 samples.

Results

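The genes described here are the subunits of the respiratory chain and of ATP synthase, encoded in the nucleus or in mitochondrial DNA. They were taken by symbol, as all names that begin with Ndufa, Ndufb, Ndufc, Ndufs or Ndufv and a digit, with Cox4 to Cox8, with Uqcr, with Atp5 or with mt-, together with Sdha, Sdhb, Sdhc and Sdhd. Of 27998 gene symbols, 97 met this rule, 84 of them nuclear and 13 mitochondrial. Levels are in CPM, the unique molecular identifiers (UMIs) counted for a gene after the total over all genes of the same cells is scaled to 1e6. A mean of at least 5 CPM over the barcode suffixes was reached by 89 of the 97 (77 nuclear and 12 mitochondrial). The other 8 were too low to be compared, and 4 of these had no UMI at all.

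The cells were mouse leukaemia cells from bone marrow of C57BL6 mice aged 11 weeks. Marrow cells bearing c-Kit from Hif-1alphaLox/Lox; CreERT2 mice had received a retrovirus with MLL-AF9, a fusion protein that causes acute myeloid leukaemia, and the primary leukaemias were then passed to further mice. From day 10 after that transfer these mice had 5 days of tamoxifen (1 mg) or vehicle, and then either PBS or cytarabine (100 mg/kg, 5 days) with doxorubicin (3 mg/kg, 3 days), and GFP+ cells were sorted 3 days after the last dose. There are 4 samples, 1 each of Hif-1a wt with PBS, Hif-1a KO with PBS, Hif-1a wt with chemotherapy and Hif-1a KO with chemotherapy. All 4 thus carry MLL-AF9, the floxed Hif-1alpha background and CreERT2, and the mice that received the first transplants were wild type. The sources used here do not say how many mice each sample pools. The count table tells its libraries apart only by a suffix from 1 to 4 on each barcode, and the sources used here do not tie a suffix to a sample. No genotype or treatment is therefore compared, each suffix is given as it stands, and since each suffix is 1 library and cells are not replicates, no p-value is given.

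Electrons from NADH enter the chain at complex I and those from succinate at complex II. Complex III passes them to cytochrome c and complex IV to oxygen, and complex V makes ATP from the proton gradient that complexes I, III and IV build. Complex II is wholly nuclear, while the other complexes combine nuclear subunits with a few that mitochondrial DNA encodes, so both genomes must supply parts. In myeloid cells, mature neutrophils are known to rely largely on glycolysis, whereas many acute myeloid leukaemias depend on respiration. HIF-1, the factor whose oxygen-regulated subunit is Hif1a, is known to shift cells toward glycolysis and to raise the subunit isoforms Cox4i2 and Ndufa4l2.

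Of 5664 barcodes, 5456 had a mitochondrial share of at most 10% and were kept. The 208 others were dropped by that limit alone, which caps the mitochondrial level of each kept cell. There were 1174, 1251, 1625 and 1406 kept cells and between 7644436 and 9932649 UMIs in suffixes 1 to 4. Median depth was 6093.5, 6435, 5315 and 5324 UMIs per cell. Across suffixes, 17 barcode sequences recurred, and Scrublet marked 28 kept cells (0.513%) as doublets, which stayed in. Summed neutrophil markers stood at 994 and 1622 CPM in suffixes 1 and 2 and at 18535 and 13402 CPM in suffixes 3 and 4, with all 16 genes of that list detected. Erythroid (at most 11.0 CPM), megakaryocyte (7.46 CPM), T and NK cell (13.9 CPM), B cell (89.0 CPM) and stromal and endothelial (98.1 CPM) sums were low in each suffix. Intervals below are exact at 95% (Poisson for CPM, binomial for ratios and shares) and cover counting error only. Because 3' UMIs count the end of a transcript once, CPM carries no length term. Many nuclear members have processed pseudogenes, and the sources used here do not say how reads shared with such copies were counted.

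Sequences are shown for 2 features of the genes. The first is that 2 pairs of mitochondrial genes share bases at the join of their reading frames, so that reads there cannot be told apart by gene. In GENCODE M21 (GRCm38) the end of mt-Atp8 and the start of mt-Atp6 overlap by 43 bases and those of mt-Nd4l and mt-Nd4 by 7 bases. Each line runs 5′ to 3′ on the plus strand with 20 bases on either side, and capitals mark the shared bases (chrM:7907-7989 and chrM:10147-10193).
mt-Atp8/mt-Atp6: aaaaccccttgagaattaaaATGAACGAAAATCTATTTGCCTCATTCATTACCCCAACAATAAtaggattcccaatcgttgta
mt-Nd4l/mt-Nd4: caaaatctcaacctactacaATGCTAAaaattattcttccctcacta

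The second is the promoter. The motif of NRF1, a transcription factor known for driving respiratory genes, is a palindrome of 10 bases. Its letters, the capitals in the lines below, were searched on both strands from 250 bases before to 50 after each RefSeq start (GRCm38.p6). Of 84 nuclear members, 69 had such a window (3 by a synonym), and 5 of them (7.25%) held these letters against 1.39% of 18790 genes of the table. The ETS letters CCGGAAG, which GABP binds, were found in 23.2% of members and 12.5% of all genes, the YY1 letters AAGATGGCG in 11.6% and 2.09%, CCAAT in 44.9% and 42.1%, and TATAAA in 10.1% and 14.5%. No matches of 2 different motifs shared bases in any member. In Uqcrc1 the NRF1 letters were not wholly within the 250 bases before the start. The other 4 are printed as 70 bases 5′ to 3′ on the gene's strand with the NRF1 letters in capitals. Atp5k and Cox6a1 are shown also because they are among the members that differ between suffixes. The windows are chr5:108434410-108434479 (minus strand), chr5:115349081-115349150 (minus), chr15:102671050-102671119 (minus) and chr17:56717672-56717741 (plus).
Atp5k: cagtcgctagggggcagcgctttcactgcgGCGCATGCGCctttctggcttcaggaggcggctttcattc
Cox6a1: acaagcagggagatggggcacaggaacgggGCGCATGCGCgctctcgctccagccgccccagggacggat
Atp5g2: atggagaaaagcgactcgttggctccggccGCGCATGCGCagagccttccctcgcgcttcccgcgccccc
Ndufa11: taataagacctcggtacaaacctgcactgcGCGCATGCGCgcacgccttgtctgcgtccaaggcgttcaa

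In kept cells the 13 mitochondrial genes together took 2.94%, 2.87%, 2.60% and 2.77% of UMIs in suffixes 1 to 4, and the 84 nuclear members took 2.78%, 2.80%, 2.56% and 2.38%. Respiratory transcripts were thus divided almost evenly between 13 mitochondrial and 84 nuclear genes. mt-Atp6, which forms the proton channel of ATP synthase with subunit c, was the highest member, at 7414, 7269, 5928 and 6552 CPM in suffixes 1 to 4, and had rank 9 among all genes by mean level. mt-Co3 followed at 6465, 6411, 5563 and 5979 CPM and mt-Co1, the catalytic subunit of complex IV, at 4609, 4304, 4827 and 4823 CPM. mt-Co2, which takes electrons from cytochrome c, stood at 3112, 3088, 2930 and 3065 CPM, within 1.06-fold (interval 1.04 to 1.08) across suffixes. mt-Cytb, the one mitochondrial subunit of complex III, was at 2567 and 2586 CPM in suffixes 1 and 2 and at 1859 and 2108 CPM in suffixes 3 and 4.

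The 7 mitochondrial genes of complex I, which form its proton-pumping membrane arm, covered a wide range. mt-Nd1 stood at a mean of 2741 CPM, mt-Nd4 at 1424, mt-Nd2 at 552, mt-Nd3 at 168, mt-Nd5 at 155 and mt-Nd4l at 27.8 CPM. mt-Nd6 was lowest, with 106 UMIs in all kept cells (3.10 CPM). It is the one mitochondrial member on the minus strand (chrM:13552-14070), overlaps mt-Nd5 on the other strand, and fell below the minimum for comparison. In both overlapping pairs printed above the upstream gene was far lower than the downstream one, with mt-Atp8 at 16.8 CPM beside mt-Atp6 at 6791 CPM and mt-Nd4l beside mt-Nd4 as given.

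**Figure D1:**
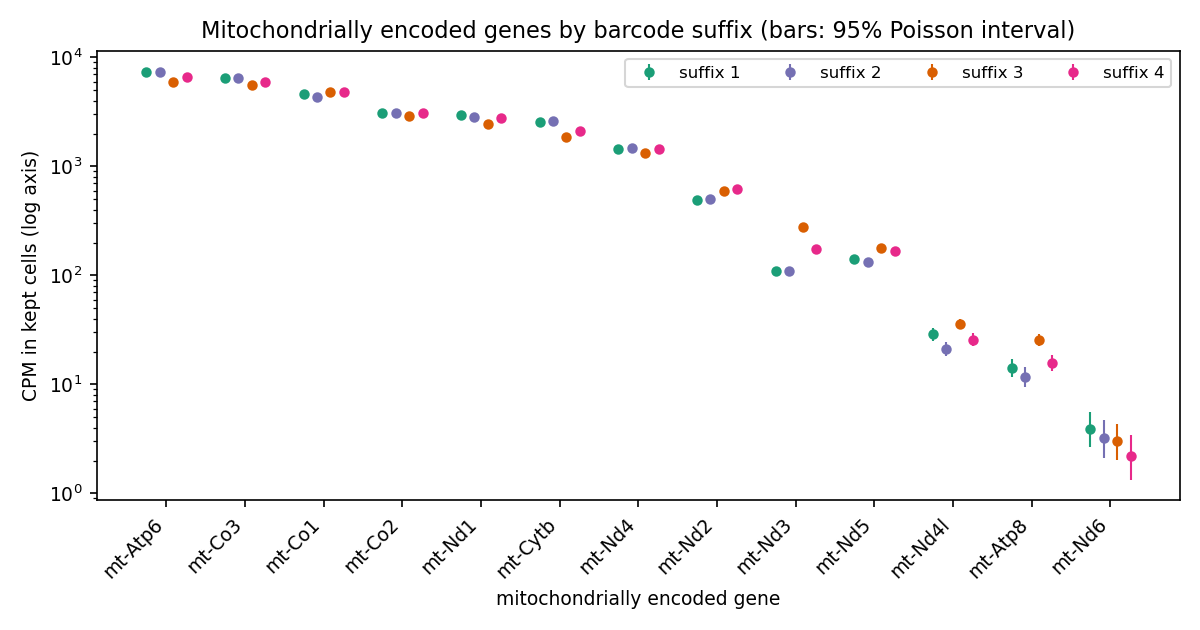
Level of the 13 mitochondrially encoded genes in kept cells of each barcode suffix, in CPM on a log axis, with points for suffixes and bars for the exact Poisson interval. mt-Nd3, mt-Nd4l and mt-Atp8 sit highest in suffix 3, while mt-Atp6 and mt-Cytb sit lowest there.

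Among nuclear genes the level per complex was 7392 CPM summed over complex I (35 genes), 536 over complex II (4), 2703 over complex III (8), 7717 over complex IV (20, of which 13 reached the minimum) and 7863 over complex V (15). The remaining members, Atp5s and Atp5sl, match the rule by name and were put in no complex, and Ndufa4 and Ndufa4l2 were counted with complex IV. Cox4i1, the regulatory subunit of complex IV, was the highest nuclear member at 1422, 1369, 1258 and 1297 CPM, with rank 126 among all genes. Next came Atp5b, the catalytic beta subunit of ATP synthase, at a mean of 890 CPM, and Cox8a at 869 CPM. Of complex I the highest were Ndufb11 (391 CPM) and Ndufa13 (372), both accessory subunits, and Ndufs1, the large iron-sulfur core subunit, was the lowest at 34.6 CPM. In complex III, Uqcrh, the hinge protein beside cytochrome c1, stood at 692 CPM and Uqcrb at 496, against 253 CPM for the Rieske protein Uqcrfs1. The subunits of complex II ran from Sdhb, its iron-sulfur subunit, at 189 CPM through the flavoprotein Sdha (136) to the membrane anchors Sdhd (114) and Sdhc (102). Of complex V, Atp5h (subunit d) reached 746 CPM, and the lowest was Atp5k at 161 CPM. Annotated genes of the other strand overlap 29 nuclear members, and how the counting treated strand is likewise unknown here.

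**Figure D2:**
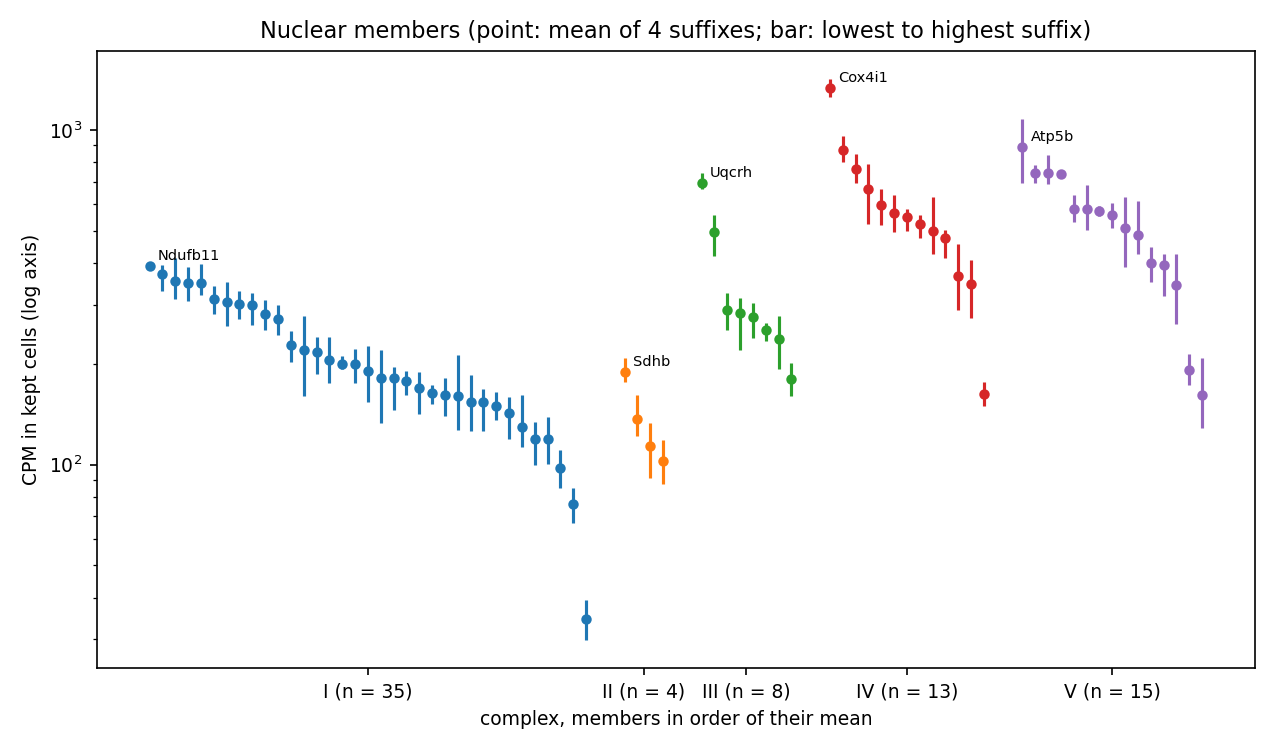
Level of the 75 nuclear members of complexes I to V that reached a mean of 5 CPM, in CPM on a log axis, ordered within each complex. Points are means of the 4 suffixes, bars run from the lowest to the highest suffix, and Cox4i1 stands above all others at 1336 CPM.

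Complex IV and ATP synthase have subunit isoforms that differ by tissue, and here the widely used isoform was the main one in each case. Cox4i1 had 45850 UMIs and Cox4i2, the lung isoform and HIF-1 target, 48 (1.44, 1.44, 0.805 and 1.99 CPM in suffixes 1 to 4), seen in 47 of 5456 cells (0.861%, interval 0.634 to 1.14). Ndufa4l2, the other HIF-1 target, had no UMI, while Ndufa4 stood at a mean of 665 CPM. By a limit of 3 counts, no UMI allows up to 0.392, 0.360, 0.302 and 0.351 CPM in suffixes 1 to 4. By the exact interval it allows up to 0.483, 0.443, 0.371 and 0.431 CPM. Cox7b2, Cox8b and Cox8c, isoforms of testis or muscle, also had no UMI, against means of 345 CPM for Cox7b and 869 for Cox8a. Of the muscle isoforms, Cox7a1 had 50 UMIs, beside Cox7a2 at a mean of 474 CPM and Cox7a2l at 765 CPM. The other muscle isoform, Cox6a2, had 75 UMIs, at 5.89, 3.00, 0 and 0.585 CPM in suffixes 1 to 4, where the count of 0 in suffix 3 allows up to 0.302 CPM by the same limit of 3 counts and 0.371 CPM by the exact interval. These were most frequent in the unnamed cluster 7, led by Cpa3, Npy and Mcpt8, at 12.6 CPM (25 UMIs), and 379 of the 397 cells of that cluster carry suffix 1 or 2. Cox6a2 overlaps Itgad, an integrin gene of the other strand.

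Cox6b2, known as the testis form of a complex IV subunit (chr7:4751792-4753094, minus strand), was in contrast present in each suffix at 150, 164, 176 and 162 CPM. It was detected in 56.4% of kept cells (interval 55.0 to 57.7), and reached 216 CPM in cluster 6. The ubiquitous Cox6b1 stood at 542, 555, 526 and 476 CPM. The shares of the same cells with a UMI of Cox4i2 and Cox6a2 were 0.861% and 1.19%. Of the 3 genes for subunit c of ATP synthase, which encode the same mature protein, Atp5g2 was highest (739 CPM), then Atp5g1 (510) and Atp5g3 (191), and the order held in each suffix.

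Between suffixes most members differed little. A gene was called where its highest suffix was at least 1.5-fold above its lowest and the interval of the ratio lay above 1. This applied to 13 of 89 members (10 of 77 nuclear and 3 of 12 mitochondrial), against 41.7% of all 8244 genes compared. The median ratio of highest to lowest suffix was 1.29 over nuclear members, 1.26 over mitochondrial members and 1.43 over all genes. Stage makeup, neutrophil markers (as given above) and Malat1 (5974 and 6140 CPM in suffixes 1 and 2, 9927 and 9658 CPM in suffixes 3 and 4) also differ between suffixes, and their part in these ratios was not tested.

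The called members had 2 profiles. mt-Nd3 (membrane arm of complex I) stood at 110, 110, 276 and 175 CPM, mt-Atp8 at 14.1, 11.8, 25.7 and 15.8 CPM and mt-Nd4l at 28.8, 21.1, 35.5 and 25.7 CPM. Each was highest in suffix 3, with ratios of 2.50 (interval 2.32 to 2.70), 2.18 (1.72 to 2.78) and 1.68 (1.399 to 2.03) over the lowest suffix. Ndufa3, an accessory subunit of complex I, behaved alike at 151, 151, 213 and 127 CPM, as did Atp5k, subunit e of ATP synthase, at 158, 150, 208 and 129 CPM. The other profile was high in suffixes 1 and 2 and low in both others. Ndufa12, an accessory subunit of complex I, stood at 279, 276, 164 and 160 CPM, a ratio of 1.74 (1.63 to 1.87). Atp5g1 was at 627, 632, 392 and 388 CPM, Atp5b at 1079, 1065, 692 and 725 CPM, and Atp5o, the stalk subunit OSCP, at 423, 426, 263 and 267 CPM. Cox6a1 (415, 456, 300 and 290 CPM), Ndufa4 (788, 771, 577 and 523 CPM), Ndufs6 (213, 221, 161 and 133 CPM) and the low Atp5s (10.2, 11.9, 7.15 and 8.30 CPM) shared this order. Beyond the 5 with the largest ratios, these names were given after their values were seen.

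Summed over complexes, the nuclear genes of complex I were highest in suffix 2 and lowest in suffix 4 (1.21-fold, interval 1.19 to 1.22), those of complex III 1.18-fold, of complex IV 1.14-fold and of complex V 1.197-fold. For complex V the highest was suffix 1. Complex II was highest in suffix 1 and lowest in suffix 3 (1.29-fold). All 84 together stood at 27820, 28019, 25628 and 23811 CPM. The mitochondrial sums differed less for complex I (1.07-fold) and complex IV (1.07-fold) than for complex V (1.25-fold) and for mt-Cytb of complex III (1.39-fold). When libraries were scaled by TMM or by the median of ratios in place of total UMIs, the highest mitochondrial sum moved from suffix 1 to suffix 4, so no order of suffixes is read from it.

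The suffix in which a member was high went with the length of its transcript. Lengths are the median of annotated GENCODE M21 transcripts, available for 88 compared members. For mitochondrial genes this is the span of the gene itself. Thus mt-Atp8 (204 nt) and mt-Nd4l (297 nt), which overlap longer genes, count as short by annotation only. Of the 14 members up to 500 nt, all were lower in suffix 4 than in suffix 3, with a median log2 difference of -0.46. Between 500 and 700 nt 8 of 25 members were higher in suffix 4 (median -0.12), between 700 and 1200 nt 16 of 25 (0.04), and above 1200 nt 14 of 24 (0.06). Spearman's rho between length and the log2 difference was 0.60 over 88 members, 0.59 over 76 nuclear members and, without the class up to 500 nt, which holds under 20 genes, 0.39 over 74 members. Over 8002 genes rho was -0.04, yet the 89 genes up to 500 nt again had a median of -0.38, with 11 of them higher in suffix 4. Against suffix 1, suffix 3 was higher for 12 of 14 members up to 500 nt (median 0.29) and for 72 of 89 such genes of all kinds (0.51), and lower for 22 of 24 members above 1200 nt (-0.32). Genes share libraries and depth, so these are descriptions of the libraries and carry no test.

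**Figure D3:**
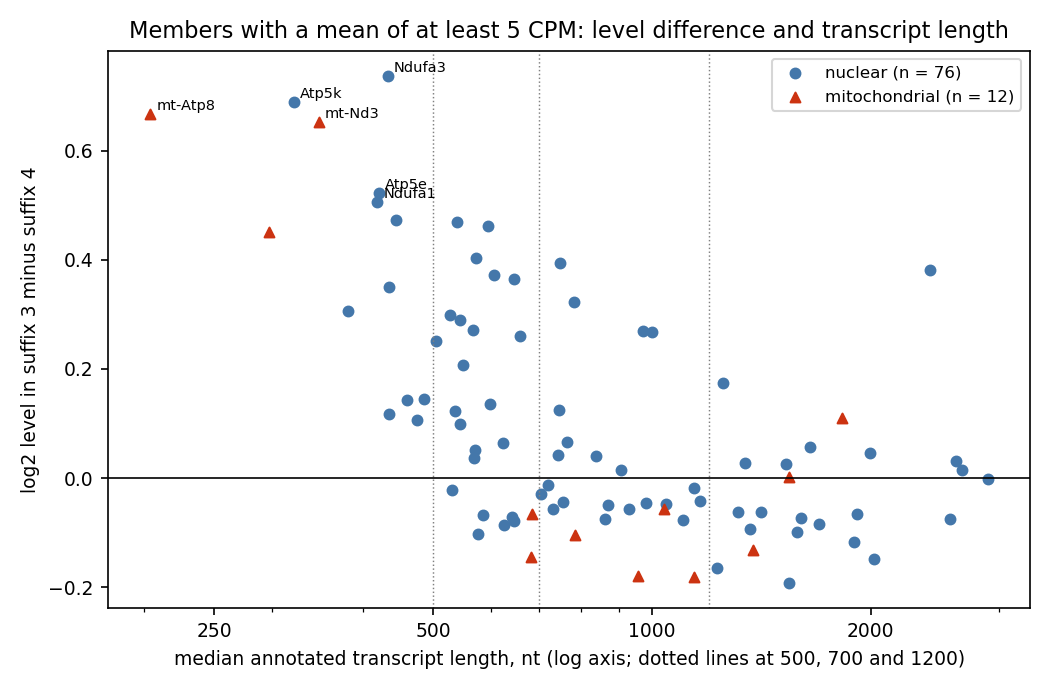
Difference of log2 level between suffix 3 and suffix 4 (y axis, with 1 CPM added) against the median annotated transcript length (x axis, nt, log scale) for 88 members; circles are nuclear and triangles mitochondrial genes. All 14 members up to 500 nt lie above 0, led by Ndufa3, Atp5k, mt-Atp8 and mt-Nd3, and members above 700 nt lie around 0.

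Suffixes 3 and 4 were then compared inside each of the 11 clusters with at least 30 cells of both, which keeps cell stage roughly fixed. Nuclear members were lower in suffix 4 in 11 of 11 clusters, with ratios from 0.878 to 0.959. Mitochondrial members were higher in 10 of 11, with ratios from 0.998 to 1.10. Separated by length, the 39 nuclear members up to 700 nt were lower in suffix 4 in 11 of 11 clusters (median ratio 0.850), while the 44 above 700 nt had a median ratio of 0.977, with 3 clusters higher and 4 whose interval lay below 1. The nuclear gap between these libraries was thus found mainly in short transcripts. The split at 700 nt was chosen after seeing the data. It uses the same cells as the length trend above and so restates that trend by cluster. The 7 mitochondrial genes above 700 nt were higher in suffix 4 in 10 of 11 clusters (median 1.06). Between suffixes, 9 of 39 members up to 700 nt (23.1%) and 4 of 49 above 700 nt (8.16%) were called, beside 43.9% and 41.6% of all genes of these lengths. Suffix 3 against suffix 1 and suffix 2 gave no steady nuclear direction, with 2 of 5 and 3 of 6 clusters higher. Suffix 4 was lower than suffix 2 in 7 of 7 clusters and lower than suffix 1 in 5 of 6.

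Stages were set from clusters made without the 97 members among the variable genes, so that the members' levels did not shape them directly. A cluster took a name when at least 3 markers of 1 cell type, and more than of any other, were 2-fold raised. That type also had to hold more of the cluster's 10 leading genes than any other. Clusters 13 and 14 had 11 and 14 raised monocyte markers but failed this second condition. They stayed unnamed and are among the other cells against which monocyte-like cells are set. Of 15 clusters, 8 and 11 were granulocyte precursor-like (624 cells) and 12 was neutrophil-like (242 cells, led by Ngp, Camp and S100a9). Clusters 0 and 10 were monocyte-like (907 cells) and 5 was eosinophil-like (410 cells, led by Prg2 and Prg3). Cluster 8 (363 cells, led by Nkg7 and Cebpe) had 4 raised markers of its type, Mpo, Ctsg, Cebpe and Nkg7. Elane, Ms4a3 and Prtn3 were not raised in it. Cluster 11 (261 cells, with Ms4a3, Nkg7 and Elane among its leading genes) had 12 raised, these included. The eosinophil name rests on exactly 3 raised markers, and 5 of the 10 markers of that list had no UMI. Other genes of these cells correlate with the members and did shape the clusters, so the contrasts below are descriptions. Each stage was set against all other kept cells of the same suffix, provided that either side held 30 cells or more. That gave suffixes 3 and 4 for all stages, and suffixes 1 and 2 also for granulocyte precursor-like cells. A gene's value is the median over these suffixes of log2 of its level in the stage over that in the others, with 1 CPM added. It was called higher or lower when this median was at least 1.2-fold, the direction was the same in each usable suffix and the pooled interval excluded 1.

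Neutrophil-like cells had low respiratory transcripts, and the mitochondrial genes more so than the nuclear ones. Of 12 mitochondrial genes 10 were lower and 0 higher (median log2 ratio -0.64). Of 77 nuclear members 52 were lower and 2 higher (median -0.40), beside -0.40 over all genes, of which 37.7% were lower and 8.09% higher. The nuclear median thus equalled that of all genes, while the share of members called lower was above theirs and the share called higher below it. Granule and calprotectin genes held 19.6% of UMIs in these cells, and with scaling by UMIs outside granule and mt- genes the nuclear median was -0.12 (24 of 77 lower and 6 higher) and the mitochondrial median -0.35. All genes then had a median of -0.13, with 20.8% lower and 14.5% higher.

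The lowest member was mt-Nd5 (chrM:11742-13565, plus strand), at 93.0 against 189 CPM in suffix 3 and 60.2 against 174 CPM in suffix 4, a log2 ratio of -1.27. mt-Co1 was at -0.77, mt-Co3 at -0.69, mt-Co2 at -0.61, mt-Atp6 at -0.60 and mt-Cytb at -0.54, all called lower. mt-Atp8 (0.01) and mt-Nd4l (-0.01), the short genes of the overlapping pairs, were the exceptions. Each of the 4 subunits of complex II was lower, with Sdhb (chr4:140961203-140979193, plus strand) at 82.6 against 185 CPM in suffix 3 and 94.8 against 184 CPM in suffix 4 (log2 ratio -1.05) and Sdha at -0.73. Atp5a1, the alpha subunit of ATP synthase, was at -0.99, and Ndufs3, a core subunit of complex I, was at -0.88. mt-Nd2 was at -0.88 as well. Only 2 members were higher. Ndufv3 (chr17:31520115-31531331, plus strand, GRCm38), an accessory subunit of the NADH-oxidising part of complex I, stood at 250 against 144 CPM in suffix 3 and 246 against 110 CPM in suffix 4 (0.97), and Cox6a1 at 347 against 296 and 366 against 284 CPM (0.30). Ndufb7 (0.16), Ndufb3 (0.06) and Ndufs6 (0.06) were next and were not called.

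Monocyte-like cells had lower nuclear members while other genes were balanced. Of 77 nuclear members 47 were lower and 3 higher (median log2 ratio -0.34), where all genes had a median of -0.01, 26.8% lower and 26.0% higher. Of these 77 members, 10 lay above the median of all genes. Complex V was lowest as a sum, at 0.788 of the level in other cells (interval 0.777 to 0.799), followed by complex I at 0.830, complex IV at 0.884, complex II at 0.925 and complex III at 0.943. By the median log2 ratio of members the order differed. Complex IV was then lowest (-0.46, 8 of 13 lower), followed by complex V (-0.37), I (-0.33), III (-0.25) and II (-0.18). Atp5g1 stood at 222 against 436 CPM in suffix 3 and at 212 against 432 CPM in suffix 4 (-0.998). Ndufa12 was at 91.5 against 183 and 83.9 against 179 CPM (-1.04), and Atp5s, at under 10 CPM in all groups, at -1.22. Ndufb6 and Atp5g3 were both at -0.73. These genes were low in both suffixes alike.

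A few members ran the other way in monocyte-like cells. Cox7a2l (chr17:83501918-83517330, minus strand), a protein related to the subunit Cox7a2, stood at 1072 against 734 CPM and 1154 against 772 CPM (0.56). Uqcrh was at 938 against 691 and 861 against 646 CPM (0.43) and Ndufa6 at 468 against 379 and 395 against 303 CPM (0.34). Among mitochondrial genes mt-Nd5 (0.31) and mt-Co1 (0.30) were higher, while mt-Nd1 (-0.53), mt-Nd4l (-0.42), mt-Nd3 (-0.37) and mt-Cytb (-0.34) were lower, and 6 of 12 were not called. The reference holds clusters 2, 4 and 9, which are led by cell cycle genes. Without these clusters the nuclear median was -0.22, with 34 of 77 lower, beside 0.0021 and 20.1% over all genes. At a finer clustering (resolution 2) it was -0.07 with 15 of 77 lower, beside 0.0072 and 18.8%. With cells gated directly on marker UMIs it was -0.17 with 23 of 77 lower, beside -0.035 and 18.6%.

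**Figure D4:**
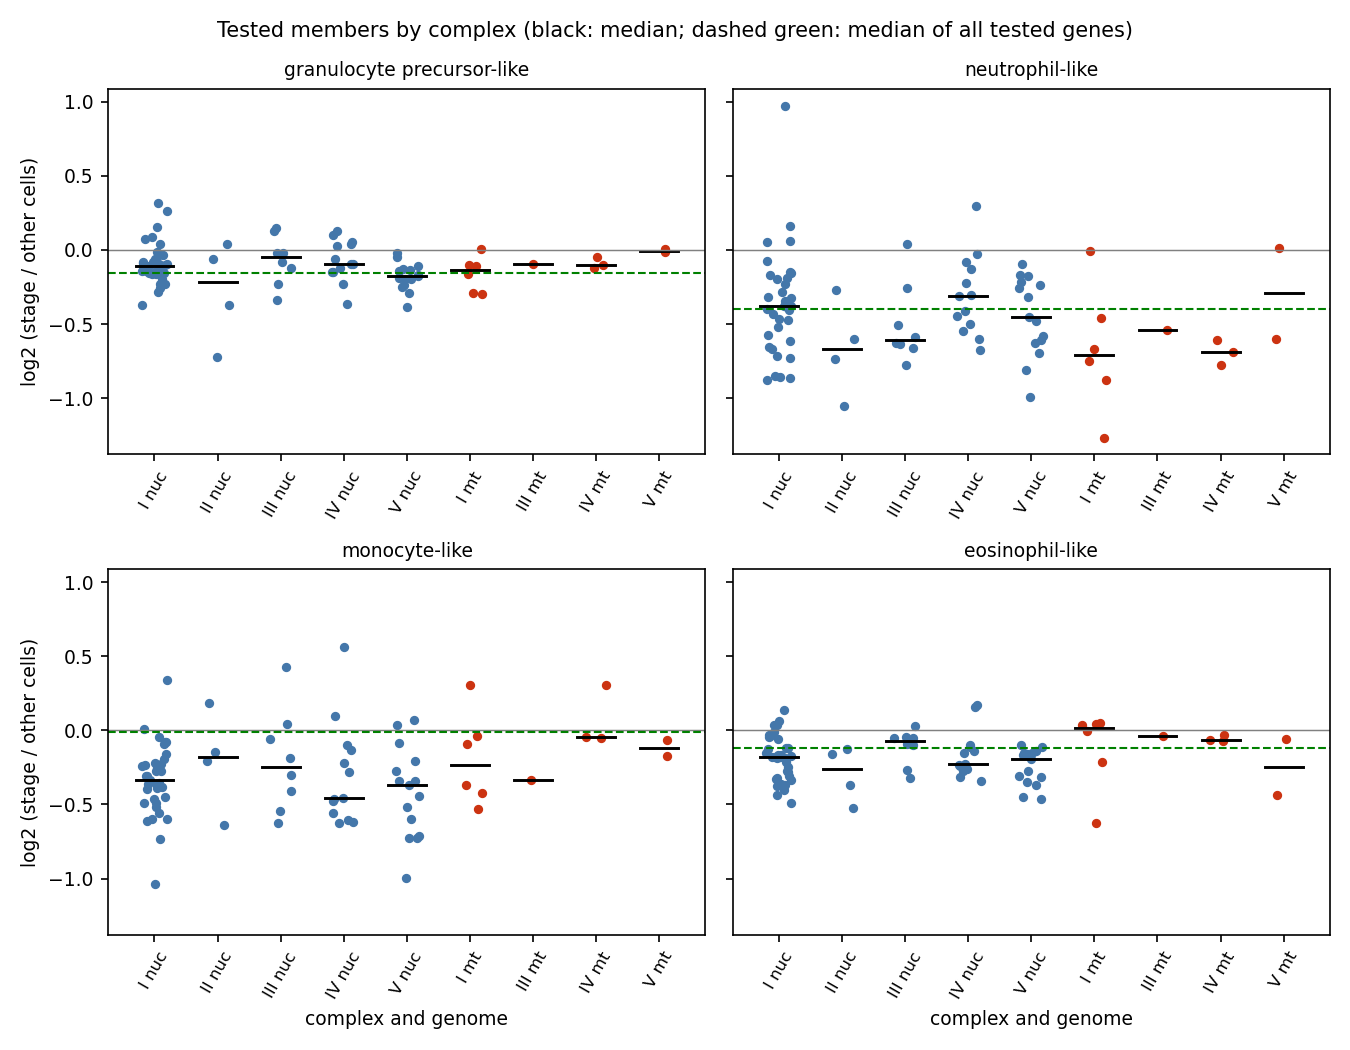
Log2 ratio of each compared member in 4 marker-defined stages against the other cells of the same suffix (median over suffixes), by complex and genome (blue nuclear, red mitochondrial); Atp5s and Atp5sl, in no complex, are not drawn. Black bars are medians of a complex and the dashed line the median of all compared genes, below which most nuclear members of monocyte-like cells lie.

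In eosinophil-like cells 26 of 77 nuclear members were lower and 0 higher, with a median of -0.18 against -0.12 over all genes, of which 18.2% were lower and 6.73% higher. Sdhb was at 124 against 182 CPM in suffix 3 and 131 against 185 CPM in suffix 4 (-0.52), and Ndufa9 (-0.49), Atp5g3 (-0.47) and Atp5o (-0.45) were lower as well. Of the mitochondrial genes only mt-Nd4l was called (-0.62), at 33.0 against 35.8 CPM in suffix 3 and 12.1 against 27.7 CPM in suffix 4. The highest were Cox7a2l (0.17), Cox6b2 (0.16), Ndufa6 (0.14), Ndufa13 (0.06) and mt-Nd5 (0.05), none of them called. Without the cell cycle clusters in the reference 5 of 77 members were lower, with a median of -0.060 beside -0.090 over all genes, of which 12.7% were lower. With TMM scaling 12 were lower, with a median of -0.10 beside -0.040 and 13.7%. In cells thinned to 2000 UMIs, where counts are fewer, 8 were lower, with a median of -0.15 beside -0.15 and 10.2%. The stage met its name in no other clustering tried.

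Granulocyte precursor-like cells were close to the other cells. Of 77 nuclear members 9 were lower and 2 higher (median -0.12, all genes -0.16, of which 18.6% lower and 6.11% higher), and of 12 mitochondrial genes 2 were lower (mt-Nd3 at -0.30 and mt-Nd2 at -0.29). Sdhb was the lowest, at 151, 124, 112 and 86.2 CPM in suffixes 1 to 4 against 221, 211, 180 and 182 CPM in the other cells, a log2 ratio of -0.72. Atp5sl (-0.52), Atp5a1 (-0.38) and Sdha (-0.37) were lower as well. Atp5s (0.50), at 8.34 to 16.6 CPM, and Ndufb3 (0.32), at 216, 213, 281 and 278 CPM against 188, 190, 207 and 198 CPM, were higher. Ndufv3 (0.26), Ndufa6 (0.16) and Uqcr11 (0.15) came next and were not called. The sign of the nuclear median depends on the clusters. At resolution 0.5 it was 0.17 with 16 of 77 members higher and 0 lower, beside -0.047 over all genes, with 5.28% higher and 12.1% lower. With cells gated on marker UMIs it was 0.070 with 5 higher and 1 lower, beside -0.090, 5.22% and 14.0%. Cluster 8 lies almost wholly in suffixes 1 and 2, so suffixes 3 and 4 of this stage are mainly cluster 11.

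The catalytic subunits of complex II, Sdhb and Sdha, were lower in neutrophil-like, eosinophil-like and granulocyte precursor-like cells and not called in monocyte-like cells. In the last, Sdhb stood at 197 against 171 CPM in suffix 3 and 195 against 174 CPM in suffix 4 (0.18), Sdha was at -0.21, and the anchor Sdhc was lower at -0.64. By cluster Sdhb was lowest in the neutrophil-like one at 84.9 CPM and highest in cluster 9, led by genes of mitosis, at 252 CPM. The stages share reference cells, so their values are not independent.

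Across all 15 clusters, pooled over suffixes and so with unequal suffix makeup, cluster 9 was the highest for more members than any other cluster. Leaving aside Atp5s, whose lowest cluster had no UMI, the widest range was that of Ndufc1, a small subunit of complex I, from 32.8 CPM (4 UMIs) in cluster 14 to 215 CPM in cluster 9. Atp5g1 ran from 148 CPM in cluster 14 (18 UMIs) through 219 and 226 CPM in the monocyte-like clusters 10 and 0 to 705 CPM in cluster 4, which is led by S phase genes. Ndufa12 had a like order, from 84.7 CPM in cluster 10 to 329 CPM in cluster 9. Both were thus low in monocyte-like and high in cell cycle clusters. Ndufv3 was different, with 255 CPM in the neutrophil-like cluster 12 and 210 CPM in the granulocyte precursor-like cluster 11, against 145 CPM in cluster 4 and 102 CPM in cluster 0. Cox7a2l was lowest in cluster 4 (467 CPM) and reached 1228 CPM in cluster 13 and 1125 CPM in cluster 0. Ndufa2, an accessory subunit of complex I, was the steadiest member, between 301 and 428 CPM in all 15 clusters.

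The ratio of mitochondrial to nuclear member UMIs needs no scaling between cells. Over all kept cells it was 1.06, 1.02, 1.01 and 1.17 in suffixes 1 to 4. By complex it was 0.684 for complex I, 0.834 for complex III, 1.78 for complex IV and 0.859 for complex V. Neutrophil-like cells had the lowest ratio of the named stages, 0.855 (interval 0.836 to 0.874) for suffix 3 and 0.948 (0.922 to 0.975) for suffix 4. The ratio in monocyte-like cells was 1.13 (1.11 to 1.14) and 1.27 (1.25 to 1.29), eosinophil-like cells at 1.09 (1.07 to 1.11) and 1.23 (1.21 to 1.25), and granulocyte precursor-like cells at 1.07, 1.05, 1.02 and 1.18 in suffixes 1 to 4. Against the other cells of the same suffix, the log2 ratio was -0.29 in neutrophil-like cells and lay between -0.41 and -0.25 in all 12 alternatives run. In monocyte-like cells it was 0.17, and between 0.03 and 0.19 in 10 alternatives, so its sign held and its size did not. In granulocyte precursor-like cells it was 0.02 and changed sign with the clustering.

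By complex, the mitochondrial to nuclear ratio of complex IV was 1.39 and 1.48 in neutrophil-like cells of suffixes 3 and 4 and 2.01 and 2.23 in monocyte-like cells. Complex I stood at 0.541 and 0.583 against 0.686 and 0.761, and complex V at 0.713 and 0.841 against 0.878 and 1.03, so these too were lower in neutrophil-like cells of both suffixes. For complex III neutrophil-like cells were not lower, at 0.646 and 0.821 in neutrophil-like and 0.609 and 0.732 in monocyte-like cells. Among unnamed clusters the ratio reached 1.35 in cluster 13 (157 cells, led by Cd74), 1.4004 in cluster 14 (37 cells, led by interferon genes) and 1.26 in cluster 1 (led by Tsc22d1 and Cpa3). It was lowest in cluster 9 (0.906) and cluster 4 (0.984, led by S phase genes). Suffix 4 was above suffix 3 in each of the 11 clusters that had 30 cells of both.

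**Figure D5:**
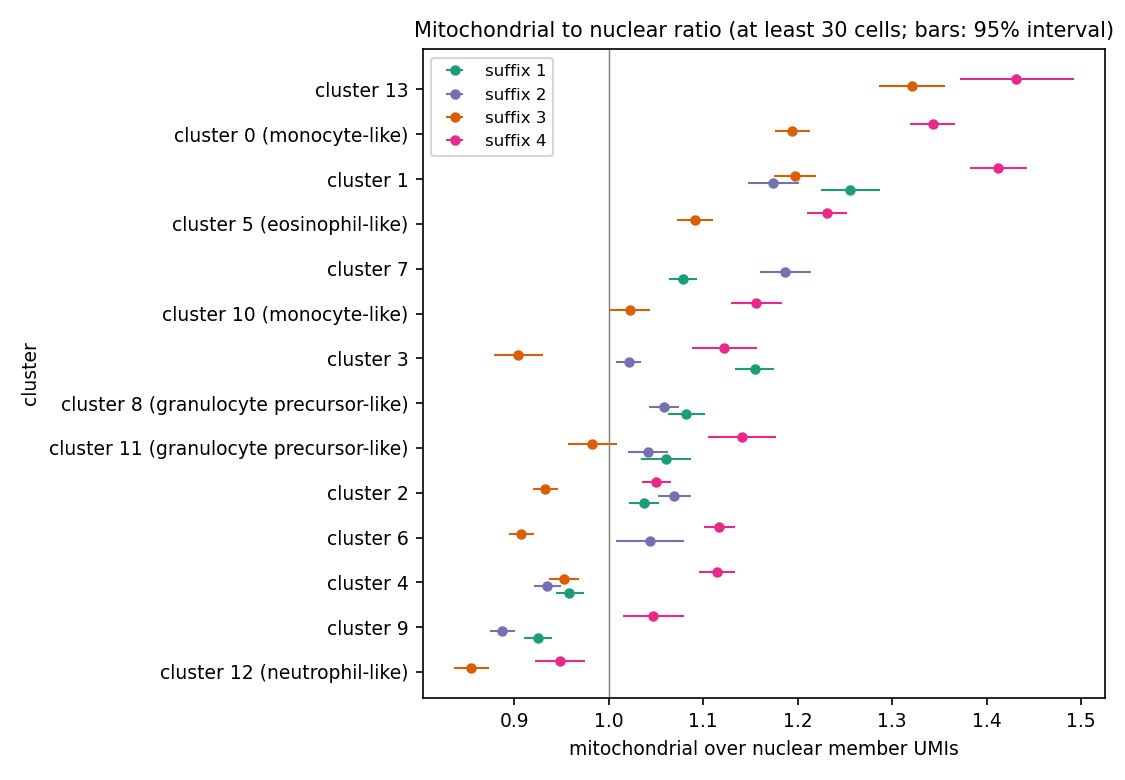
Ratio of mitochondrial to nuclear member UMIs (x axis) in each cluster (y axis, in order of the median) and suffix with at least 30 cells; points are suffixes and bars exact intervals. The neutrophil-like cluster 12 is at the bottom (0.855 and 0.948), and within each cluster that has both, suffix 4 lies to the right of suffix 3.

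Cell by cell, the nuclear members took a median of 2.51% and the mitochondrial genes 2.72% of UMIs. The median nuclear share was 1.88% in neutrophil-like, 2.11% in monocyte-like, 2.17% in eosinophil-like and 2.53% in granulocyte precursor-like cells, beside 2.70% in unnamed clusters. The mitochondrial share was 1.62%, 2.48%, 2.55% and 2.70% in these stages and 2.84% in unnamed clusters. Of the named stages, neutrophil-like cells were thus lowest in both shares, while the other stages kept a mitochondrial share near that of all cells. The unnamed cluster 14 had a lower median nuclear share, 1.78%. Granule and calprotectin genes held 19.6% of UMIs in neutrophil-like cells, which lowers all their other shares. The order of stages in shares outside granule UMIs was not tested. With each cell thinned to 2000 UMIs, which left out 114 shallower cells, the neutrophil-like medians were 1.85% and 1.55%. Cells with a mitochondrial share above 5% made up 0.826% of neutrophil-like and 4.05% of all kept cells.

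Genes that work with the chain were described by lists, set beside the medians of all genes given above. Of all 8244 genes 37.7% were lower and 8.09% higher in neutrophil-like cells, and 26.8% and 26.0% in monocyte-like cells. The shares were 18.2% and 6.73% in eosinophil-like and 18.6% and 6.11% in granulocyte precursor-like cells. A count near these shares, here or in the lists below, is not read as a result about its list. A list of 5 subunits and regulators holds genes that the symbol rule misses. Of these 5, 4 were called between suffixes, with Ndufab1 at a ratio of 1.86, beside 41.7% of all genes. The list is too short to set against that share. In monocyte-like cells 5 of 5 were lower, with the ATP synthase inhibitor Atpif1 at -0.91 and the complex I acyl carrier Ndufab1 at -0.87, and in neutrophil-like cells 5 of 5 were lower. In eosinophil-like cells 2 of 5 were lower and in granulocyte precursor-like cells 0. Of 76 compared mitochondrial ribosomal proteins, which translate the mitochondrial genes, 50 were lower and 2 higher in monocyte-like cells (median -0.46), 47 and 0 in neutrophil-like cells (-0.53), 24 and 0 in eosinophil-like cells (-0.19) and 7 and 3 in granulocyte precursor-like cells (-0.14). In monocyte-like cells Mrpl12, which also binds the mitochondrial RNA polymerase, was at -1.22, and Mrpl33, the highest of the list, was called higher at 0.28. Assembly factors were lower in 15 of 41 in neutrophil-like cells (median -0.55, with Ndufaf4 at -1.90) and in 13 of 41 in monocyte-like cells, where 7 were higher (-0.22, with Ndufaf2 at -1.32). In neutrophil-like cells the share lower was near the 37.7% of all genes.

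Of 18 genes of the tricarboxylic acid cycle, which feeds the chain, 12 were lower in neutrophil-like cells (median -0.61, Fh1 at -1.64 and Idh2 at -1.41) and 8 lower with 1 higher in monocyte-like cells (-0.21, Idh3a at -1.77 and Mdh2 at -0.65). In eosinophil-like cells 4 were lower (-0.25) and in granulocyte precursor-like cells 2 (-0.059), with Fh1 called in both. Of 13 carriers and exchangers, 8 were lower in neutrophil-like cells, with the ADP/ATP exchangers Slc25a5 at -0.96 and Slc25a4 at -2.55. In monocyte-like cells 6 of 13 were lower and 1 higher, with Etfb, which passes electrons from fatty acid oxidation, at -1.24 and the uncoupling protein Ucp2 at 0.77. In granulocyte precursor-like cells Etfb was higher at 0.92. Of 18 glycolysis genes 4 were higher and 6 lower in neutrophil-like cells (median -0.13), and 4 and 5 in monocyte-like cells (-0.06), where Gapdh was at -0.48 and the low Aldoc at 1.71. For the same list, 4 were higher and 1 lower in eosinophil-like cells (0.065), and 2 and 0 in granulocyte precursor-like cells (0.041).

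Of 23 genes for mitochondrial transcription, RNA and DNA upkeep, 7 were lower and 0 higher in neutrophil-like cells (median -0.37), with Lrpprc, which stabilises mitochondrial messages, at -1.99 from a mean of 7.53 CPM. The share lower was not above the 37.7% of all genes. In monocyte-like cells 5 were lower and 4 higher (-0.11). Of 9 compared regulators of respiratory genes 0 were called in neutrophil-like cells, while in monocyte-like cells Nfe2l2 was higher (0.84) and Myc lower (-3.24), and in eosinophil-like cells Gabpa (-0.94) and Gabpb1 (-0.68), the DNA-binding alpha subunit and its beta partner in GABP, were lower. Of 9 compared genes that link HIF to mitochondria, 2 were higher and 2 lower in neutrophil-like cells (median -0.20). In monocyte-like cells 3 were higher and 1 lower (0.06) and in eosinophil-like cells 3 and 2 (-0.03). In granulocyte precursor-like cells 1 was higher and 0 lower (-0.02). Among these 9, Bnip3l, a receptor for the removal of mitochondria, was higher in all 4 stages (0.64 in granulocyte precursor-like, 0.45 in neutrophil-like, 0.59 in monocyte-like and 0.72 in eosinophil-like cells). Hif1a itself had a mean of 32.4 CPM and was not called in neutrophil-like cells (-0.72) or in granulocyte precursor-like cells (0.45). The cell cycle moved with the stage contrasts. For the G2 and M phases the list has 21 genes, of which 21 were lower in monocyte-like and in eosinophil-like cells (medians -3.35 and -2.91) and 20 in granulocyte precursor-like cells (-1.85), while 9 were higher in neutrophil-like cells (0.48). Apart from the reference without cell cycle clusters given above, their part in the members' values was not tested.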

How the data were processed

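The 4 samples were sequenced as single cells with 10x Chromium 3' V2 reagents, per the labels' protocols. Reads were processed with Cell Ranger 1.3 on mm10 and later steps used Seurat 2.3.4, per the submitters' processing notes, whereas Seurat 1.4 stands in the design text. Which gene annotation served is not given in the sources used. The deposited values are UMI counts per gene and barcode, not normalized. Members and lists were chosen with earlier results of these data known.

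Barcodes under 500 UMIs (0 here) or above 10% mt- UMIs were dropped. Counts were summed over cells and scaled by total UMIs. Clusters came from scanpy 1.11.5 (Python 3.11.15): counts scaled to 10000 per cell, 2000 variable genes, 30 principal components, 15 neighbours, Leiden resolution 1 (leidenalg 0.10.2). A raised marker had at least 20 CPM. Alternatives changed the scaling (TMM factors from edgeR 4.0.16), the pseudocount, the filter on low genes, the mt- limit, the depth, the clustering and the suffixes used. No genotype or treatment test was made, since all 5664 barcode columns lack a sample. Of the rules, only the calling of genes in a stage was tried on simulated counts. These used monocyte-like cells and no variation beyond counting error, so they do not bear on the suffix rule or the naming of clusters. Named are all mitochondrial genes, the 2 highest nuclear members per complex, the 5 highest and 5 lowest members per stage, the 5 largest suffix ratios, isoforms, and for each list up to 4 genes, some left out of the text; 1 gene that the rule names is not reported here. Sequences and positions come from RefSeq (GRCm38.p6) and GENCODE M21, matching 96 of 97 members.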

Additional observations from a re-analysis of the deposited data

How the results depend on the processing

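Of 361 alternative values for 26 results, 231 were labelled the same, 130 moved and 0 reversed. A stage value could be labelled reversed only where its main value was at least 1.2-fold. A suffix ratio could be only where the highest and lowest suffix changed places. Counts of called members and per-cell shares could not be, so the 0 is no measure of how steady the results were. The limit for the same differed by kind of result. It was the counting interval for suffix ratios, a set fold for counts of called members, and the spread between suffixes for stage medians. All 26 results are summaries, so the labels do not show whether single called genes kept their direction. The change of the highest mitochondrial suffix with TMM or median of ratios was not labelled reversed. Neither was the median of granulocyte precursor-like cells, which was not called and changed sign at resolution 0.5 and with gates. No paired analysis was possible because each group has 1 sample and the barcode columns carry no replicate number. The cause of each change was not tested. Here N, M, E and G stand for neutrophil-like, monocyte-like, eosinophil-like and granulocyte precursor-like cells, values are median log2 ratios of nuclear members, and counts are members called lower. The suffix ratio is the highest over the lowest summed suffix. Scaling shifts all genes of a group, and values over all genes are given above for some of these settings only. A median or count below that stands without them is therefore not read as a result about the members.

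TMM gave suffix ratios of 1.12 (nuclear) and 1.05 (mitochondrial), G -0.027 with 4, N -0.13 with 25, M -0.40 and E -0.10 with 12. Median of ratios gave 1.12 and 1.04, G -0.0024 with 1, N -0.085 with 22 and E -0.080 with 10. Scaling without granule and mt- UMIs gave 1.17 and 1.12, and N -0.12 with 24. The mean over cells gave 1.21 and 1.17, G with 5, N -0.35 and E -0.12 with 12. Thinning to 2000 UMIs gave 1.21 and 1.16, and E with 8. An mt- limit of 5% gave G -0.040 with 3 and M -0.26, and no limit gave a mitochondrial ratio of 1.10. Clustering without cell cycle and ribosomal genes gave G -0.0031 with 3 and M -0.20. Resolution 0.5 gave G 0.17 with 0 and N -0.47, and resolution 2 G -0.013 with 3 and M -0.069 with 15. Gates on marker UMIs gave G 0.070 with 1, N -0.29, M -0.17 with 23 and E -0.079 with 2. A reference without cell cycle clusters, chosen after seeing the data, gave G -0.055 with 4, N -0.31, M -0.22 and E -0.060 with 5. Transcripts above 700 nt alone, also chosen after seeing the data, gave 1.2003 and 1.11, with 4 of 49 members called between suffixes (all genes of that length 41.6%). Leaving out 1 suffix gave N from -0.48 to -0.36.

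The mitochondrial to nuclear ratio of suffixes (highest over lowest) was 1.12 by the mean over cells, 1.14 with no mt- limit and 1.16 above 700 nt. As log2 stage over others it was: mean over cells, G -0.0012, N -0.40, M 0.091 and E 0.029; thinned, N -0.41, M 0.080 and E 0.030; limit of 5%, N -0.25 and M 0.031; no limit, G -0.014 and N -0.38; without cell cycle genes, G -0.060, N -0.32 and M 0.064; resolution 0.5, G -0.13; resolution 2, G -0.048, N -0.33 and M 0.052; gates, G -0.040, N -0.25, M 0.032 and E 0.031; leaving out 1 suffix, N from -0.31 to -0.26.

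Monocyte-like cells had no named cluster with no mt- limit or at resolution 0.5, and eosinophil-like cells in no other clustering, so these gave no value. With 1 library a suffix, intervals cover counting error only. Members at or under 3 counts a suffix, such as Ndufa4l2, were not detectable at this depth.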
